A study of Homo sapiens with 18 samples.

Results

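Ribosome footprints of IMR90 cells treated with inflachromene (ICM) were compared with those of young, proliferating IMR90 cells. IMR90 is a line of human fetal lung fibroblasts, and ICM is a small molecule that binds HMGB1 and HMGB2, abundant chromatin proteins. The 6 libraries compared, 3 ICM and 3 young, were chosen by the condition and assay in their titles, out of 18 libraries in the series. The series' design text counts 4 young and 2 ICM-treated samples for these assays, which differs from the 3 of each in the titles, and the titles were followed. The labels name no treatment for the young cells. The ICM cells were of the same line and, per the study's text, were harvested after 6 days of treatment. The dose and vehicle used for these libraries were not given in the sources used here. The remaining 3 Ribo-Seq libraries, from replicatively senescent cells, entered the fit for its estimate of the spread and are not described. The 9 mRNA-Seq libraries, made from poly(A)-enriched RNA of the same lysates, served as a second readout. Per the methods each condition was grown as 3 independent replicas. All lysates contained cycloheximide, which halts elongating ribosomes.

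Ribo-Seq sequences the short mRNA fragments that translating ribosomes shield from nuclease. A footprint count on a coding sequence (CDS) thus follows both the amount of an mRNA and the number of ribosomes on each copy. Senescent fibroblasts stop dividing, keep their metabolism active and are known for raised CDKN1A, the cyclin-dependent kinase inhibitor p21, for loss of lamin B1 and for a secretome rich in proteases and cytokines. Cells that have left the cycle also make little histone protein, since the mRNAs of the clustered histone genes accumulate during DNA synthesis. The footprints come from a whole culture, so that fewer cells of a kind and less RNA per cell cannot be told apart.

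Most tested genes of the histone clusters fell in footprints, most of those tested in poly(A)-enriched mRNA rose there, and the element that sets their mRNAs apart is shown first. Their messages end in a conserved stem-loop in place of a poly(A) tail. A search of the transcript strand of the 3′ UTRs of GENCODE transcripts on build GRCh37 found this histone 3′ stem-loop in 70 of 18816 annotated genes, or 0.372% of them. Among the 4580 tested genes that could be matched to one annotated gene, 47 held it. All 43 matched histone genes of the list described below were among these 47. The stem-loop is in capitals, with up to 5 flanking bases in lower case, for HIST1H4D and HIST1H2AH, among the largest falls, for HIST1H4I, the largest fall of the list, and for HIST1H1B and HIST1H1C, linker histones that differed in their footprints. Each lies in the 3′ UTR of a gene with 1 exon, at chr6:26188938-26188963 on the minus strand for HIST1H4D, chr6:27115320-27115341 on the plus strand for HIST1H2AH, chr6:27107428-27107453 on the plus strand for HIST1H4I, chr6:27834570-27834595 on the minus strand for HIST1H1B and chr6:26055968-26055992 on the minus strand for HIST1H1C.
HIST1H4D: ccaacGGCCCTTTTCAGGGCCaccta
HIST1H2AH: acaaaGGCTCTTTTCAGAGCCa
HIST1H4I: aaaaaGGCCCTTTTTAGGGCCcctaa
HIST1H1B: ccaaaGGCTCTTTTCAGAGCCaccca
HIST1H1C: caaaaGGCTCTTTTCAGAGCCacca

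The libraries differed widely in depth. The young libraries held 54323, 684957 and 1718431 CDS reads and the ICM libraries 224982, 78939 and 46170. A single read was worth 19.8 CPM (counts scaled to library size with TMM factors) in young replicate 1 and 22.8 CPM in ICM replicate 3, the shallowest of each group, but 0.636 CPM in young replicate 3. Values near those of 1 read cannot be ordered. Young replicate 1 also stood apart in its make-up, since 34.4% of its reads lay in CDSs and 52.5% in non-coding RNA, against CDS shares of 78.6% to 88.8% in the other libraries of the comparison. No pair of replicates was a duplicate, as counts differed between replicates by 1.45 to 3.2 times the variance of sampling noise.

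ICM replicate 3 carried footprints of genes whose mRNA was nearly absent from ICM cells. By mRNA-Seq alone, 25 genes averaged at least 20 CPM in young cells and stayed at or under 1 CPM in each ICM library, among them PLK1, AURKB and CDK1, kinases that drive mitosis. This limit was chosen after seeing the data, since no gene met the stricter one of 0.5 CPM in each library of both other conditions. Footprints on these 25 genes summed to 1902, 1752 and 1845 CPM in the young libraries. In the ICM libraries they summed to 54.2, 177 and 731 CPM, that is 2.96%, 9.68% and 39.9% of the young mean. The 3 ICM values thus lay below the young ones, and replicate 3 lay far above the other ICM libraries. The mRNA-Seq library of the same lysate did not share this, with 11.9 CPM against 12.3 and 12.2 CPM in the other ICM lysates. In the opposite direction 4 genes, MMP3, MMP10, SPP1 and SLCO2B1, were near absent from young mRNA, and their footprints summed to 936, 546 and 365 CPM in ICM and to 39.6, 1.6 and 3.82 CPM in young cells. The 39.6 CPM of young replicate 1 were 2 reads. The source of these reads was not tested, so the counts of called list members below are also given without ICM replicate 3 and without both ICM replicate 3 and young replicate 1 (both doubted libraries). For single genes these fits are given where they changed the call or moved the fold of a called gene by more than 1.5 times.

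**Figure D1:**
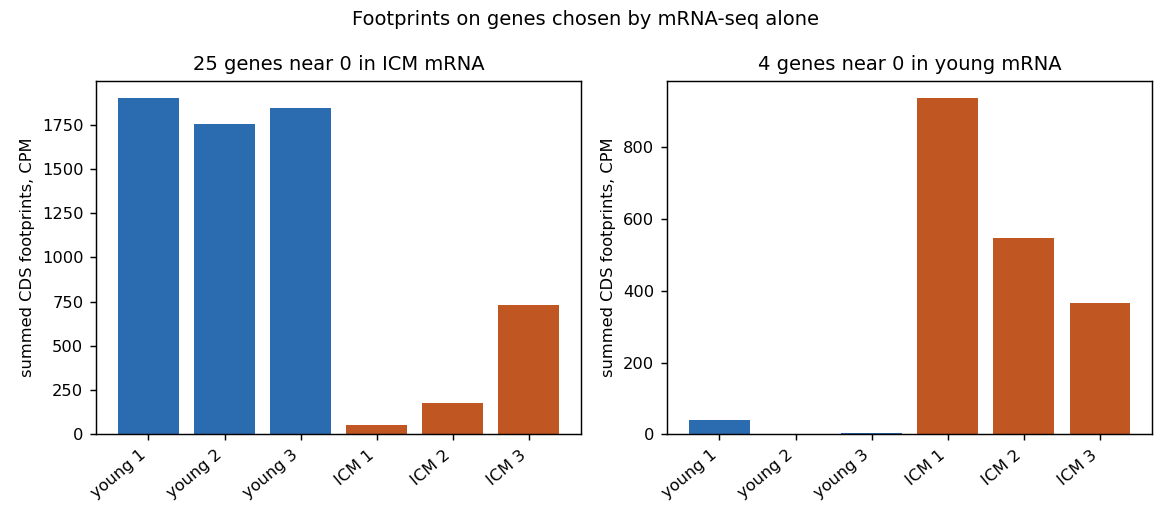
Summed CDS footprints, in CPM, on 25 genes near absent from ICM mRNA (left) and on 4 genes near absent from young mRNA (right), with 1 bar for each library. ICM replicate 3 holds 731 CPM of the first set, against 54.2 and 177 CPM in the other ICM libraries.

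Across all genes, 1236 of 4643 tested genes (26.6%) were called changed at an adjusted p under 0.05 (edgeR's quasi-likelihood test, Benjamini-Hochberg). They comprised 635 rises (13.7%) and 601 falls (12.9%), and the median log2 fold change (log2FC, ICM over young) of all tested genes was 0.00. These shares are the background for the counts of called list members below. The 3 ICM values lay wholly above or wholly below the 3 young values for 1411 genes (30.4%). Without ICM replicate 3 more genes passed the filter on low counts, and 751 of 7323 rose (10.3%) while 1007 fell (13.8%). The median log2FC of all tested genes was −0.10 in that fit. Of the 1236 called genes, 1145 were also called in the same direction without ICM replicate 3. Without both libraries 752 of 8290 genes rose (9.07%) and 1153 fell (13.9%), and 1118 of the 1236 were again called in the same direction. The median log2FC of all tested genes was −0.14 without both libraries. Small falls in the fits without doubted libraries are to be read beside these lower medians. In mRNA-Seq, which was far deeper, 4597 of 13173 genes rose (34.9%) and 4760 fell (36.1%). Of the 1214 genes called in footprints and tested in mRNA, 1116 were called in the same direction, 58 were not called and 40 were called in the opposite direction. Of those 40 genes, 22 were clustered histone genes.

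The largest rises were of 2 secreted proteins and of enzymes that handle reactive carbonyls and heme. MMP3, stromelysin 1, a protease that degrades extracellular matrix, had 19.8, 0 and 1.91 CPM in young and 365, 273 and 91.3 CPM in ICM cells. Its log2FC was 7.13 (SE 0.60, adjusted p = 1.86e-11). SPP1, the secreted phosphoprotein osteopontin, had 19.8, 1.6 and 1.91 CPM in young and 424, 218 and 228 CPM in ICM cells (log2FC 7.03, SE 0.54, adjusted p = 2.23e-12). The highest young value of both genes was a single read of the shallow young replicate 1.

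Aldo-keto reductases, which reduce aldehydes and ketones, made up 6 of the 12 largest rises. AKR1C1 had 257, 32 and 29.9 CPM in young and 2552, 2360 and 1690 CPM in ICM cells (log2FC 5.84, SE 0.40, adjusted p = 2.11e-13). AKR1C2 had 238, 28.8 and 24.2 CPM in young and 2232, 2032 and 1324 CPM in ICM cells (log2FC 5.85, SE 0.41, adjusted p = 2.11e-13). In both genes young replicate 1 was well above the other young libraries. Without both doubted libraries the log2FC was 6.19 for AKR1C1 and 6.24 for AKR1C2. AKR1C3 (log2FC 5.89), AKR1C4 (log2FC 6.10), AKR1B10 (log2FC 6.38) and AKR1B15 (log2FC 5.94) rose as well. These genes are near-identical copies of each other within the AKR1C and AKR1B groups, and reads can be divided between them, so that their single values are uncertain.

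HMOX1, the heme oxygenase that cleaves heme to biliverdin, iron and carbon monoxide, had 139, 38.4 and 42 CPM in young and 1754, 2278 and 731 CPM in ICM cells (log2FC 5.21, SE 0.34, adjusted p = 1.1e-13). KYNU, kynureninase of tryptophan breakdown, rose from 99, 4.79 and 7.64 CPM to 463, 136 and 434 CPM (log2FC 5.27, SE 0.48, adjusted p = 1.43e-10). HSD11B1, which regenerates active glucocorticoid, had 19.8, 1.6 and 5.73 CPM in young and 168, 164 and 160 CPM in ICM cells (log2FC 5.02, SE 0.60, adjusted p = 4.62e-08). The sugar transporter SLC2A12 had 99, 7.99 and 7.64 CPM in young and 365, 205 and 251 CPM in ICM cells (log2FC 4.82, SE 0.46, adjusted p = 5e-10). In each of these 4 genes the highest young value was that of young replicate 1.

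The largest falls were of genes that copy, pack and separate chromosomes. DLGAP5, a microtubule-binding protein of the spindle, had 119, 149 and 118 CPM in young cells and no read in any ICM library. With the limit of 3 reads over the ICM group, 9.37 CPM, this was at least 13.7-fold lower (adjusted p = 3.39e-06). CENPE, a kinesin that moves chromosomes to the spindle equator, had 59.4, 128 and 122 CPM in young cells and no read in ICM cells, at least 11-fold lower (adjusted p = 5.44e-06). TK1, the thymidine kinase of nucleotide salvage, had 158, 147 and 162 CPM in young and 0, 13.6 and 0 CPM in ICM cells (log2FC −5.53, SE 0.76, adjusted p = 8.82e-07). That 13.6 CPM was 1 read.

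TOP2A, the topoisomerase that untangles sister chromatids, fell from 277, 489 and 490 CPM to 4.93, 40.9 and 68.5 CPM (log2FC −4.36, SE 0.46, adjusted p = 4.17e-09). MCM5, a subunit of the replicative helicase, had 158, 104 and 116 CPM in young and 4.93, 13.6 and 0 CPM in ICM cells (log2FC −4.13, SE 0.69, adjusted p = 1.84e-05). UHRF1, which guides maintenance DNA methylation, had a log2FC of −4.35, and PSIP1, a chromatin-bound coactivator, one of −4.10. TACC3, a spindle protein, had a log2FC of −4.07, and the histone genes HIST1H4D and HIST1H2AH had −4.01 and −4.00. Most of the ICM values of these genes were 1 to 3 reads or none. Leaving out ICM replicate 3 made several of these falls larger, with a log2FC of −5.05 for TOP2A, −5.19 for UHRF1, −4.94 for PSIP1, −4.91 for TACC3 and −4.83 for HIST1H2AH.

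**Figure D2:**
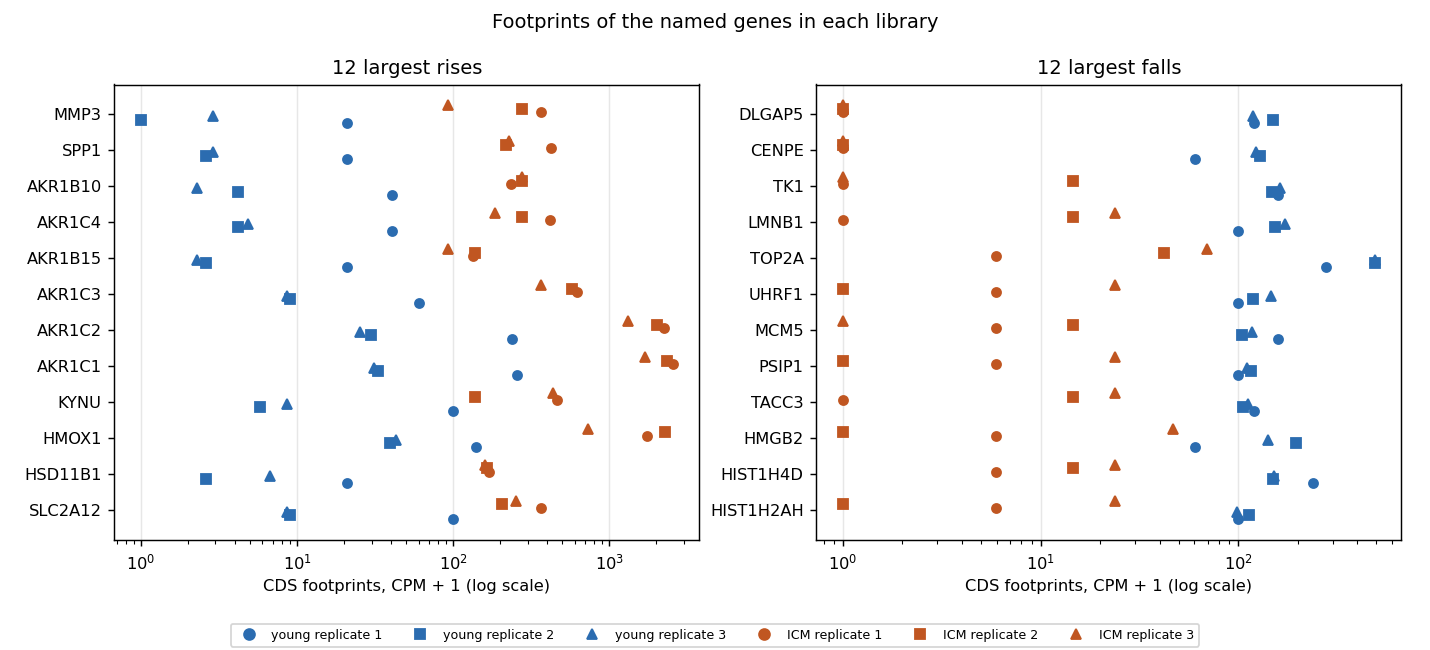
CDS footprints as CPM + 1 on a log axis for the 12 largest rises (left) and the 12 largest falls (right), with 1 point for each library. The ICM points (orange) and the young points (blue) of a gene do not overlap, as the naming rule required. Young replicate 1 is the highest young point of all 12 rises.

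Genes of the proteins that ICM binds and lamin B1 fell, and CDKN1A rose. HMGB1 had 515, 440 and 396 CPM in young and 93.6, 164 and 206 CPM in ICM cells (log2FC −1.73, SE 0.29, adjusted p = 1.98e-05). HMGB2 had 59.4, 195 and 140 CPM in young and 4.93, 0 and 45.7 CPM in ICM cells (log2FC −4.02, SE 0.67, adjusted p = 1.73e-05). LMNB1, lamin B1 of the nuclear envelope, had 99, 153 and 172 CPM in young and 0, 13.6 and 22.8 CPM in ICM cells (log2FC −4.61, SE 0.68, adjusted p = 2.48e-06). CDKN1A had 614, 361 and 312 CPM in young and 1823, 1528 and 2055 CPM in ICM cells (log2FC 2.28, SE 0.21, adjusted p = 2.6e-10). The groups of all 4 genes were apart. For HMGB2 this rested on 3 reads in young replicate 1 against 2 reads in ICM replicate 3, values too low to be ordered. Leaving out ICM replicate 3 moved the log2FC to −5.43 for HMGB2 and −5.46 for LMNB1, and leaving out both doubted libraries to −5.52 and −5.53. Their mRNA moved the same way, with a log2FC of −1.73 for HMGB1, −4.44 for HMGB2, −6.99 for LMNB1 and 2.69 for CDKN1A.

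Of 26 listed HMG proteins, lamins and chromatin factors, 22 were tested and 17 fell, with a median log2FC of −1.59. HMGA1 (log2FC −2.02), an architectural protein that binds AT-rich DNA, and the variant histone gene H2AFZ (log2FC −1.68) fell. LMNA, the gene of lamins A and C, had 1268, 1451 and 1419 CPM in young and 1212, 1364 and 1028 CPM in ICM cells, and its groups overlapped (log2FC −0.20, adjusted p = 0.414). The list took 0.469%, 0.524% and 0.493% of CDS footprints in young and 0.231%, 0.255% and 0.29% in ICM cells. The falls numbered 19 of 26 tested without ICM replicate 3 and 20 of 26 without both doubted libraries.

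Genes of DNA replication and nucleotide synthesis took 0.32%, 0.289% and 0.297% of CDS footprints in young and 0.0707%, 0.0874% and 0.156% in ICM cells. Of 31 listed genes 17 passed the filter, and 13 of these fell while none rose. RRM2, the regulated subunit of ribonucleotide reductase, had 238, 422 and 411 CPM in young and 14.8, 13.6 and 183 CPM in ICM cells (log2FC −3.35, adjusted p = 2.84e-07). Its high value in ICM replicate 3 stood well apart from those of the other ICM libraries, and without it the log2FC was −4.83. PCNA, the sliding clamp of DNA polymerases, fell (log2FC −0.96, adjusted p = 0.0127), and RPA1, which coats single-stranded DNA, did not pass (log2FC −0.16, adjusted p = 0.738). Without ICM replicate 3, 21 of 29 tested members fell, and without both doubted libraries 22 of 30.

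All 29 tested genes of mitosis and chromosome segregation, of 34 listed, fell, with a median log2FC of −2.97. Their reads over the 3 ICM libraries ranged from 0 for DLGAP5 to 18 for CCNB1. They thus passed the filter through other libraries and could hardly be called as rises. This count does not describe the listed members that were not tested. The same limit holds for low-count members of the DNA replication and histone lists. The fitted values and the bounds of the 3 genes without an ICM read both lay below the list's median, so using the bounds could not move it. The list took 0.35%, 0.432% and 0.434% of CDS footprints in young and 0.0253%, 0.0469% and 0.182% in ICM cells. CCNB1, cyclin B1, had 178, 292 and 293 CPM in young and 39.4, 40.9 and 160 CPM in ICM cells (log2FC −2.30, adjusted p = 1.3e-05). ANLN, a scaffold of the contractile ring, had 198, 360 and 377 CPM in young and 19.7, 13.6 and 137 CPM in ICM cells (log2FC −3.32, adjusted p = 1.73e-07). CDC20, an activator of the anaphase-promoting complex, had 337, 179 and 203 CPM in young and 0, 40.9 and 114 CPM in ICM cells (log2FC −2.97, adjusted p = 6.8e-05). ICM replicate 3 was the highest ICM library for these 3 genes. Without it the median of the list was −4.30 over 34 tested genes, of which 33 fell, and without both doubted libraries 33 of 34 fell again. The log2FC without ICM replicate 3 was −2.90 for CCNB1, −4.35 for ANLN and −4.25 for CDC20.

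Histone genes of the replication-dependent cluster encode the core and linker histones that pack newly made DNA. Of 65 listed genes 48 were tested, and 44 fell while none rose, with log2FC between −4.52 and −0.38. The list took 0.928%, 0.863% and 0.854% of CDS footprints in young and 0.135%, 0.184% and 0.39% in ICM cells, which did not overlap. HIST1H1B, the linker histone H1.5, had 713, 695 and 654 CPM in young and 24.6, 95.5 and 183 CPM in ICM cells (log2FC −3.37, SE 0.35, adjusted p = 2.16e-09). HIST1H1E had 812, 508 and 534 CPM in young and 83.8, 81.8 and 388 CPM in ICM cells (log2FC −2.09, adjusted p = 8.8e-06). HIST1H4I, a core histone H4 gene, had the largest fall of the list, from 79.2, 65.5 and 84.6 CPM to 4.93, 0 and 0 CPM (log2FC −4.52, adjusted p = 0.000431). The log2FC without ICM replicate 3 was −4.00 for HIST1H1B and −2.81 for HIST1H1E. The falls of the list numbered 53 of 58 tested without that library and 54 of 61 without both doubted libraries.

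HIST1H1C, the linker histone H1.2, was among the tested members that were not called. It had 891, 818 and 778 CPM in young and 626, 587 and 685 CPM in ICM cells (log2FC −0.38, adjusted p = 0.155), although its groups did not overlap. HIST1H2AC, HIST2H2AB and HIST2H2AC were not called either (log2FC −0.70, −0.87 and −0.62). HIST1H2AC was called as a fall without ICM replicate 3 and without both doubted libraries (adjusted p = 0.0227 in each). Several pairs of listed genes, such as HIST2H4A and HIST2H4B, hold nearly the same sequence and gave the same log2FC of −3.53. Single members of the core histone families are therefore uncertain. Each gene of such a pair was counted on its own, in footprints and in mRNA. The counts of histone genes thus exceed the number of genes that the reads could tell apart. Over the whole annotation-matched set of 47 tested genes with the stem-loop, 41 fell and 1 rose.

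Poly(A)-enriched mRNA of histone genes that could be tested moved the other way, from very low levels. Of 33 listed histone genes tested there, 31 rose and none fell, against 34.9% rises of all genes tested in mRNA. Their median log2FC was 2.85. Genes this low in young cells can pass the filter through the group where they are high. Such genes could hardly be called as falls, so these counts do not describe the listed members without an mRNA test. The list took 0.0101% of mRNA reads in young and 0.0938% in ICM cells, means of 3 libraries. Of the 48 genes tested in footprints 26 were also tested in mRNA, with a median of −2.74 in footprints and 2.87 in mRNA. Of the 23 of these that fell in footprints, 22 rose in mRNA. The remaining one, HIST1H2AG, was not called there (log2FC 0.24, adjusted p = 0.685). The other histone genes that fell in footprints had no mRNA test. HIST1H2AH was one of these, with 1.04 CPM of mRNA in young and 0.289 CPM in ICM cells. HIST1H1B had an mRNA log2FC of 3.13, from a mean of 0.287 CPM to one of 2.72 CPM, and HIST1H1C one of 4.40, from 13.9 to 295 CPM. The mRNA libraries count only transcripts with a poly(A) tail, which the stem-loop messages normally lack, so that both readouts need not see the same molecules. The difference between the assays was not tested here.

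**Figure D3:**
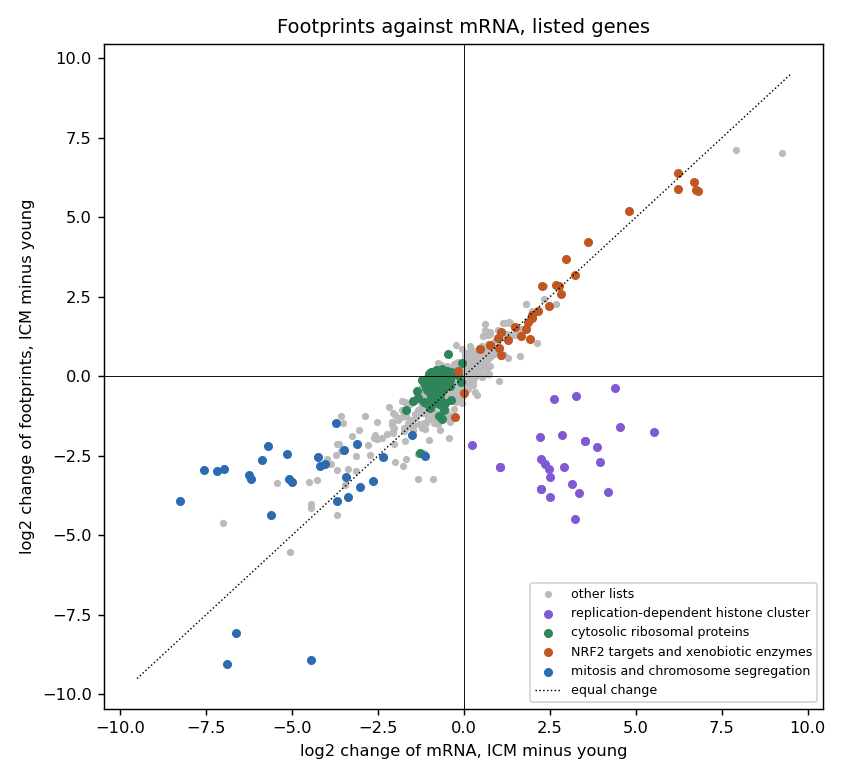
log2 change of footprints (vertical) against that of poly(A) mRNA (horizontal), ICM minus young, for listed genes tested in both assays. The clustered histone genes lie at the lower right, far from the line of equal change, with a median of −2.74 in footprints and 2.87 in mRNA. Medians in footprints and mRNA also differed for mitosis (−2.97 and −4.45) and ribosomal proteins (−0.37 and −0.80), and less for NRF2 targets (1.90 and 1.99). The fitted footprint changes near −9 belong to genes without an ICM read and are not bounds.

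NRF2 targets and xenobiotic enzymes had the highest median change of the 23 lists. NRF2 is a transcription factor that turns on genes of antioxidant defence when its inhibitor KEAP1 is modified by electrophiles. Of 37 listed genes 32 were tested, and 28 rose while 1 fell, with a median log2FC of 1.90. They took 1.43%, 1.05% and 1.02% of CDS footprints in young and 4.17%, 4.16% and 3% in ICM cells. Without ICM replicate 3, and without both doubted libraries, 28 members rose, and 1 and 2 fell. SQSTM1, the autophagy receptor p62, had 2080, 1341 and 1198 CPM in young and 7746, 7189 and 4932 CPM in ICM cells (log2FC 2.21, SE 0.19, adjusted p = 2.72e-11). PGD, an enzyme of the pentose phosphate pathway that yields NADPH, had 951, 735 and 764 CPM in young and 2833, 3165 and 3083 CPM in ICM cells (log2FC 1.94, adjusted p = 4e-10).

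PRDX1, a peroxide-reducing peroxiredoxin, rose as well (log2FC 1.28, adjusted p = 3.44e-07). TXNRD1, thioredoxin reductase, had 2813, 1827 and 1607 CPM in young and 3424, 3847 and 2078 CPM in ICM cells. Its groups overlapped, through young replicate 1 and ICM replicate 3 (log2FC 0.68, adjusted p = 0.00977). GPX4, which reduces lipid peroxides, was the one member that fell, from 158, 133 and 145 CPM to 73.9, 40.9 and 22.8 CPM (log2FC −1.27, adjusted p = 0.0108). Its mRNA log2FC was −0.25.

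Both ferritin chains, which store iron, were among the rises. They are named here after their values were seen. FTL had 772, 198 and 199 CPM in young and 1936, 1692 and 1918 CPM in ICM cells (log2FC 2.87, SE 0.29, adjusted p = 9.67e-10). FTH1 had 337, 225 and 151 CPM in young and 887, 573 and 502 CPM in ICM cells (log2FC 1.85, SE 0.24, adjusted p = 3.26e-07). Ferritin translation is classically set by an iron-responsive element in the 5′ UTR. Footprints moved about as much as mRNA, which had a log2FC of 2.69 for FTL and 1.98 for FTH1. The loop of the element, CAGTGN, is in capitals below and is flanked by 5 paired bases on each side. It lies in exon 1 of 4, at chr19:49468594-49468619 on the plus strand for FTL and at chr11:61735047-61735072 on the minus strand for FTH1 (GRCh37).
FTL: cttgcttcaaCAGTGTttggacggaa
FTH1: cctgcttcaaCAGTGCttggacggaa

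The loop with its paired flanks occurred in the 5′ UTR of 44 of 18816 annotated genes, or 0.234%, and of 15 of the 4580 matched tested genes. Of these 15 genes, 7 rose, 2 fell and 6 were not called, against 13.7% rises and 12.9% falls of all tested genes. A match of letters does not show a working element.

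Lysosomal and autophagy genes rose in 15 of 29 tested members, of 32 listed, and none fell. The median log2FC was 0.79, and the list took 0.922%, 0.787% and 0.787% of CDS footprints in young and 1.88%, 1.79% and 1.56% in ICM cells. NPC1, which exports cholesterol from lysosomes, had 218, 67.1 and 61.1 CPM in young and 443, 341 and 251 CPM in ICM cells (log2FC 2.44, adjusted p = 1.07e-07). CTSB, the protease cathepsin B, rose from 1387, 1154 and 1272 CPM to 2163, 1610 and 2535 CPM (log2FC 0.74, adjusted p = 0.0035). The groups of both genes were apart. PSAP, the precursor of the saposins that help to degrade sphingolipids, had a log2FC of 0.32 and was not called (adjusted p = 0.17). The rises numbered 14 of 29 without ICM replicate 3 and 13 of 29 without both doubted libraries.

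Glycolytic genes rose in 6 of 19 members, all of them tested, and none fell. Their share of CDS footprints was 2.66%, 2.29% and 2.27% in young and 4.34%, 4.41% and 3.52% in ICM cells, much of it GAPDH. GAPDH, which oxidizes glyceraldehyde 3-phosphate, had 9943, 7756 and 7686 CPM in young and 20650, 19943 and 14750 CPM in ICM cells (log2FC 1.14, adjusted p = 5.61e-07). SLC2A1, the glucose transporter GLUT1, had 535, 355 and 378 CPM in young and 2922, 3383 and 1850 CPM in ICM cells (log2FC 2.83, SE 0.20, adjusted p = 5.27e-13). PKM, pyruvate kinase, rose (log2FC 0.61, adjusted p = 0.00251). ENO1, enolase, and LDHA, lactate dehydrogenase A, were not called, with log2FC of −0.17 and 0.34. The rises of the list numbered 8 without ICM replicate 3 and 7 without both doubted libraries.

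Cholesterol synthesis genes rose in 6 of 18 tested members, of 24 listed, with none falling. CYP51A1, the lanosterol demethylase, had 158, 169 and 179 CPM in young and 256, 368 and 206 CPM in ICM cells (log2FC 0.68, adjusted p = 0.0374), a call that was lost without ICM replicate 3 (adjusted p = 0.0503). DHCR7, the last reductase of the pathway, rose with overlapping groups (log2FC 1.67, adjusted p = 0.000142), since ICM replicate 3 held 68.5 CPM. The list took 0.208%, 0.182% and 0.192% of CDS footprints in young and 0.303%, 0.326% and 0.31% in ICM cells. The rises numbered 5 of 21 tested without ICM replicate 3 and 5 of 22 without both doubted libraries.

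Targets of p53 rose in 7 of 14 tested members, of 27 listed, and none fell. GDF15, a secreted stress cytokine, had 218, 112 and 114 CPM in young and 488, 791 and 502 CPM in ICM cells (log2FC 2.28, SE 0.26, adjusted p = 1.57e-08). MDM2, the ubiquitin ligase of p53, had 178, 105 and 102 CPM in young and 384, 232 and 114 CPM in ICM cells, and the groups overlapped (log2FC 1.46, adjusted p = 0.000172). BAX, which permeabilizes mitochondria in apoptosis, was not called (log2FC 0.30, adjusted p = 0.545). Without ICM replicate 3, 9 of 21 tested members rose and 1 fell, and without both doubted libraries 9 of 25 rose and 2 fell.

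Senescence-associated secreted factors did not move one way. Of 36 listed genes 19 were tested, of which 4 rose and 7 fell, against 13.7% rises and 12.9% falls of all tested genes. The list took 1.72%, 1.72% and 1.77% of CDS footprints in young and 1.48%, 1.57% and 1.73% in ICM cells, with overlap. IGFBP5, a binding protein of insulin-like growth factors, had 9745, 11108 and 11204 CPM in young and 7169, 8648 and 8700 CPM in ICM cells (log2FC −0.40, adjusted p = 0.0416). IGFBP4 rose from 852, 630 and 590 CPM to 1325, 1241 and 1416 CPM (log2FC 1.03, adjusted p = 0.000126). STC2, the secreted glycoprotein stanniocalcin 2, rose as well (log2FC 0.83, adjusted p = 0.00145). Better-counted falls were those of PTX3 and ICAM1, named after their values were seen. PTX3, the secreted pentraxin 3, had 495, 553 and 504 CPM in young and 98.5, 109 and 320 CPM in ICM cells (log2FC −1.93, adjusted p = 4.55e-06). ICAM1, a leukocyte adhesion molecule, had 178, 125 and 129 CPM in young and 4.93, 68.2 and 0 CPM in ICM cells (log2FC −2.76, adjusted p = 0.000322). PLAU, the protease urokinase, and its receptor PLAUR fell too (log2FC −0.98 and −1.45). INHBA, an activin subunit, was the largest fall but rested on few reads, with 0, 32 and 32.5 CPM in young and 4.93, 0 and 0 CPM in ICM cells, and its groups overlapped (log2FC −3.23, adjusted p = 0.021). The list had 4 rises and 7 falls without ICM replicate 3, and 4 and 8 without both doubted libraries.

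**Figure D4:**
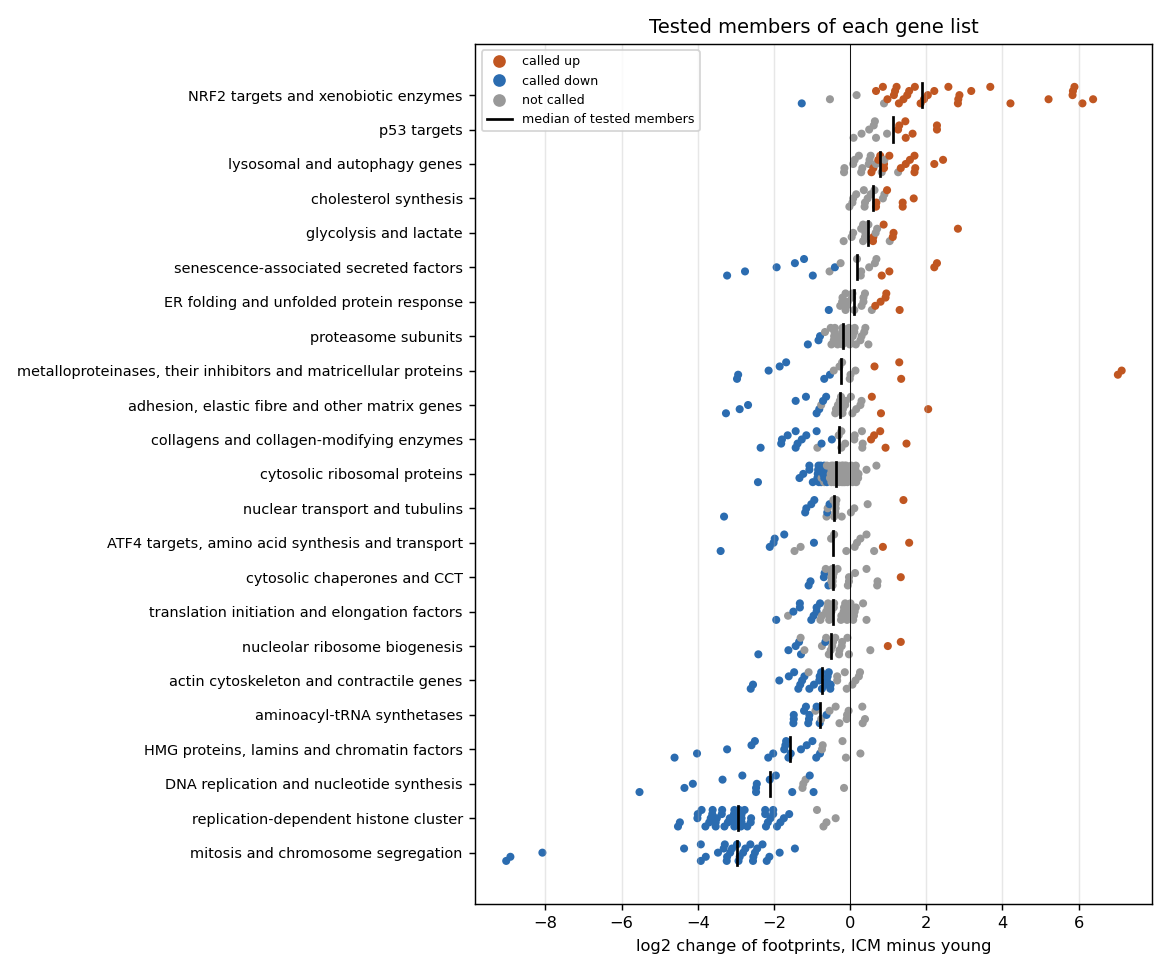
log2 change of footprints, ICM minus young, of each tested member of 23 gene lists, with called rises in orange, called falls in blue, uncalled genes in grey and the median as a black bar. Lists are ordered by their median, from 1.90 for NRF2 targets to −2.97 for mitosis, and the fitted changes near −9 belong to genes without an ICM read.

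Metalloproteinases, their inhibitors and matricellular proteins were split, with 5 rises and 7 falls among 18 tested of 21 listed. CCN2, connective tissue growth factor, had 2278, 1902 and 2057 CPM in young and 5376, 5088 and 4475 CPM in ICM cells (log2FC 1.29, adjusted p = 1.94e-07). TNC, the matrix glycoprotein tenascin C, fell from 198, 524 and 578 CPM to 83.8, 13.6 and 68.5 CPM (log2FC −2.97, adjusted p = 1.67e-07). THBS1, thrombospondin 1, fell (log2FC −0.53, adjusted p = 0.0115), and TGFBI, a collagen-binding matrix protein, rose (log2FC 0.64, adjusted p = 0.00358). TIMP1, an inhibitor of metalloproteinases, had 4100, 3628 and 3804 CPM in young and 3981, 3833 and 3722 CPM in ICM cells (log2FC 0.01, adjusted p = 0.962). The list had 6 rises and 7 falls without ICM replicate 3, and 6 and 8 without both doubted libraries.

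Collagens and their modifying enzymes took the largest share of footprints of any list in young cells, 6.77%, 6.63% and 6.37%, against 3.23%, 3.26% and 4.96% in ICM cells. Of 27 tested members, of 30 listed, 12 fell and 5 rose, against 12.9% and 13.7% of all tested genes. COL1A1, the main chain of type I collagen, had 20243, 20320 and 18774 CPM in young and 3971, 3901 and 9476 CPM in ICM cells (log2FC −1.81, SE 0.21, adjusted p = 3.97e-08). ICM replicate 3 was again nearest to the young libraries, and the log2FC without it was −2.39. COL1A2, its partner chain, fell from 12756, 14617 and 13304 CPM to 6307, 5770 and 10298 CPM (log2FC −0.88, adjusted p = 0.000211). COL6A3, a chain of type VI collagen, had a log2FC of −1.43, and PCOLCE, which promotes procollagen processing, one of −2.35, which was −2.97 without ICM replicate 3. The 5 rises were of collagen-modifying enzymes. Among them PLOD2, a lysyl hydroxylase, had 456, 612 and 655 CPM in young and 1823, 1705 and 1484 CPM in ICM cells (log2FC 1.48, adjusted p = 6.08e-08), and P4HB, the protein disulfide isomerase that is also a subunit of prolyl hydroxylase, had a log2FC of 0.93 (adjusted p = 2.92e-05). The list had 4 rises and 11 falls without ICM replicate 3, but 2 rises and 12 falls without both doubted libraries, as P4HA1, P4HA2 and LOX then lost the call (adjusted p = 0.157, 0.0606 and 0.0829).

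Other matrix and adhesion genes rose in 3 and fell in 9 of 27 tested members, of 28 listed. Of all tested genes 13.7% rose and 12.9% fell. NID2, a basement membrane nidogen, had 990, 826 and 854 CPM in young and 3533, 3697 and 3585 CPM in ICM cells (log2FC 2.05, SE 0.17, adjusted p = 1.22e-11). BGN, the small proteoglycan biglycan, fell from 139, 211 and 225 CPM to 14.8, 40.9 and 22.8 CPM (log2FC −3.26, adjusted p = 1.01e-06). FN1, fibronectin, and DCN, decorin, had overlapping groups and were not called, with log2FC of −0.39 and 0.27. FN1 was called as a fall without ICM replicate 3 (log2FC −0.56, adjusted p = 0.0251) and without both doubted libraries (log2FC −0.76, adjusted p = 0.00179). ITGB1, the common beta chain of collagen and fibronectin receptors, was called with overlapping groups (log2FC −0.63, adjusted p = 0.00623). The list had 2 rises and 11 falls without ICM replicate 3, and 2 and 13 without both doubted libraries.

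All 30 listed genes of the actin cytoskeleton were tested, and 21 fell while none rose. They took 5.29%, 5.32% and 5.48% of CDS footprints in young and 3.19%, 3.33% and 3.89% in ICM cells. TAGLN, transgelin of contractile cells, had 3209, 2899 and 2718 CPM in young and 345, 327 and 1005 CPM in ICM cells (log2FC −2.61, SE 0.25, adjusted p = 5.64e-10). VIM, the intermediate filament protein vimentin, fell from 9508, 7329 and 7858 CPM to 4464, 4747 and 4818 CPM (log2FC −0.81, adjusted p = 0.000109). ACTG1 fell (log2FC −0.61, adjusted p = 0.00307), and ACTB had a log2FC of −0.34 and was not called (adjusted p = 0.0831), but was called without both doubted libraries (log2FC −0.57, adjusted p = 0.0187). The falls of the list numbered 21 without ICM replicate 3 and 23 without both. These actins are close copies, so that reads may be divided between them.

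Fibroblast identity was checked with 14 marker genes, collagens among them, which took 5.37%, 5.68% and 5.4% of footprints in young and 2.58%, 2.68% and 3.84% in ICM cells. Of 11 tested, 6 fell and none rose. No epithelial marker of 12 passed the filter, and that list had 0 reads in all ICM libraries. Endothelial markers took at most 0.00887% and blood markers at most 0.00889% of any of the 6 libraries, and markers of liver or neurons at most 0.0405%.

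Ribosomal proteins and translation factors form the machinery whose position the footprints record. All 80 listed cytosolic ribosomal proteins were tested, of which 23 fell, against 12.9% of all tested genes, and none rose. Their median log2FC was −0.37. Falls numbered 35 without ICM replicate 3 and 37 without both doubted libraries. In mRNA 77 of the 80 fell, against 36.1% of all genes tested there, with a median of −0.80. Their share of CDS footprints was 5.07%, 4.52% and 4.47% in young and 3.58%, 3.43% and 4.12% in ICM cells. RPL36A had the largest fall, from 257, 185 and 201 CPM to 54.2, 0 and 22.8 CPM (log2FC −2.42, adjusted p = 4.47e-05). RPL4 had 1169, 1349 and 1479 CPM in young and 1468, 1282 and 1530 CPM in ICM cells, with a log2FC of 0.06 in footprints and of −1.01 in mRNA. RACK1, a scaffold on the small subunit, had a log2FC of −0.10 in footprints and of −1.18 in mRNA. For RPL10 these were −0.14 and −0.80, and for RPL15 −0.30 and −0.67. RPL15 was not called with all libraries. It was called as a fall without ICM replicate 3 (log2FC −0.60, adjusted p = 0.0256) and without both doubted libraries (log2FC −0.61, adjusted p = 0.0226).

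Initiation and elongation factors fell in 9 of 36 members, all tested, against 12.9% of all tested genes, and none rose. The falls numbered 13 without ICM replicate 3 and 15 without both doubted libraries. EEF1A1, which delivers aminoacyl-tRNA to the ribosome, had 8002, 10479 and 10986 CPM in young and 9372, 9658 and 9339 CPM in ICM cells, with overlap (log2FC −0.06, SE 0.15, adjusted p = 0.781). Its mRNA log2FC was −1.10. EEF2, the translocase, had a log2FC of 0.15 in footprints (adjusted p = 0.495), while its mRNA was called as a fall. EIF1AX, an initiation factor of start codon scanning, was the largest called fall (log2FC −1.94, adjusted p = 0.00191), although its groups overlapped. Messages of ribosomal proteins and elongation factors begin with a pyrimidine tract that ties their translation to growth signals. The difference between footprints and mRNA of these genes was not tested here.

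Aminoacyl-tRNA synthetases, which charge tRNAs, fell in 11 of 22 tested members, of 23 listed, and none rose, and 12 of 23 fell in either fit without doubted libraries. GARS, for glycine, had 753, 964 and 803 CPM in young and 330, 232 and 343 CPM in ICM cells (log2FC −1.49, adjusted p = 4.1e-06). EPRS, for glutamate and proline, had a log2FC of −1.07, WARS, for tryptophan, one of −0.80, and IARS, for isoleucine, was not called (log2FC −0.09, adjusted p = 0.8). ATF4 targets and genes of amino acid synthesis fell in 6 and rose in 2 of 18 tested members, of 22 listed. Of all tested genes 12.9% fell and 13.7% rose. In either fit without doubted libraries 9 members fell and 2 rose. ASNS, asparagine synthetase, had 139, 205 and 209 CPM in young and 9.85, 27.3 and 45.7 CPM in ICM cells (log2FC −3.40, SE 0.49, adjusted p = 1.56e-06). The transporters SLC7A11, which imports cystine, and SLC1A5, which imports glutamine, rose (log2FC 1.55 and 0.86). SLC7A11 is also an NRF2 target and is on that list too.

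Nucleolar genes of ribosome biogenesis fell in 6 and rose in 2 of 24 tested members, of 25 listed. Of all tested genes 12.9% fell and 13.7% rose. In either fit without doubted libraries 7 members fell and 1 rose. NPM1, nucleophosmin, had 436, 475 and 497 CPM in young and 197, 232 and 137 CPM in ICM cells (log2FC −1.29, adjusted p = 0.000126). NCL, nucleolin, had a log2FC of −0.65 and UTP20 one of −2.41, while RRP12, which acts in export of pre-ribosomes, rose (log2FC 1.33, adjusted p = 0.00109).

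Of 23 tested cytosolic and mitochondrial chaperones, of 24 listed, 5 fell and 1 rose, against 12.9% falls and 13.7% rises of all tested genes. The falls numbered 8 without ICM replicate 3 and 11 without both doubted libraries. HSPD1, the mitochondrial HSP60, fell (log2FC −1.09, adjusted p = 0.000165), BAG3, a cochaperone of selective autophagy, rose (log2FC 1.33, adjusted p = 6.79e-05), and HSPA8 was not called (log2FC −0.06). Of 31 proteasome subunits, all tested, 3 fell and none rose, with a median log2FC of −0.20. This share of falls was below the 12.9% of all tested genes. The falls numbered 5 without ICM replicate 3, against 13.8% of all tested genes, and 6 without both doubted libraries, against 13.9%. PSMA1 had the largest called fall (log2FC −1.11, adjusted p = 0.00196), and PSMB1, PSMB4, PSMB5 and PSMD2 lay between −0.08 and 0.12. Genes of folding in the endoplasmic reticulum rose in 5 and fell in 1 of 21 tested members, of 22 listed. The shares of all tested genes were 13.7% and 12.9%. The counts were also 5 and 1 in both fits without doubted libraries. HSPA5, the chaperone BiP, was the one that fell (log2FC −0.56, adjusted p = 0.0105). CRELD2 was called as a rise with overlapping groups (log2FC 1.30, adjusted p = 0.0398).

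Nuclear transport and tubulin genes fell in 7 and rose in 1 of 20 tested members, of 21 listed, while 14 of 21 fell and 1 rose in either fit without doubted libraries. STMN1, which destabilizes microtubules, had 238, 409 and 367 CPM in young and 44.3, 13.6 and 45.7 CPM in ICM cells (log2FC −3.31, SE 0.37, adjusted p = 1.78e-08). TNPO1, an importin, was the one rise (log2FC 1.40, adjusted p = 2.67e-06). TUBB fell (log2FC −0.60, adjusted p = 0.0048), and the near-identical TUBA1A, TUBA1B and TUBA1C were not called with all libraries, with log2FC of −0.36, −0.39 and −0.42. They were called as falls without ICM replicate 3 (adjusted p = 0.0363, 0.0214 and 0.0306) and without both doubted libraries, where the log2FC was −0.69, −0.75 and −0.70 (adjusted p = 0.00586, 0.00292 and 0.00591).

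**Figure D5:**
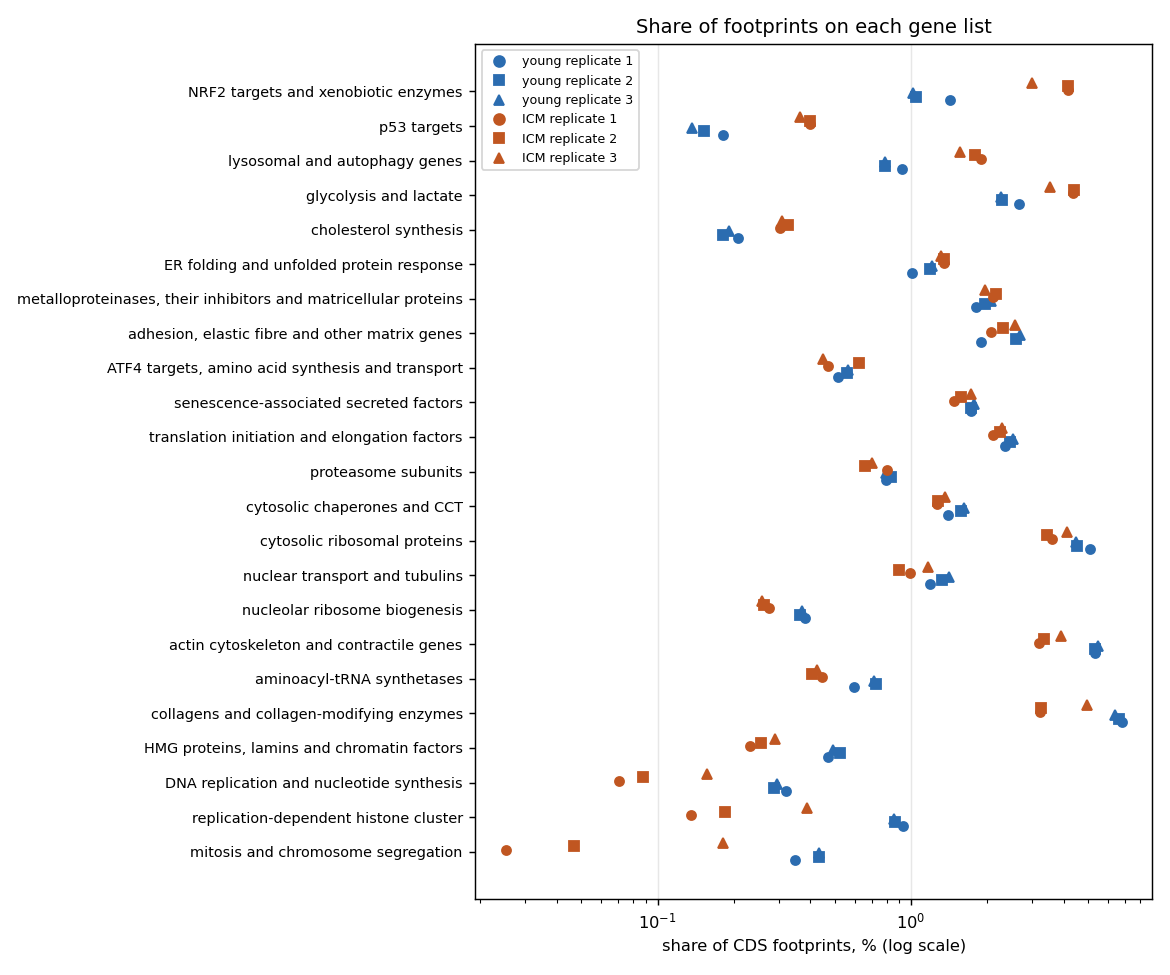
Share of all CDS footprints of a library, in percent on a log axis, that fell on each of 23 gene lists, with 1 point for each library. Lists are ordered by the ratio of the ICM to the young mean, and ICM replicate 3 (orange triangles) lies nearer to the young libraries for mitosis (0.182%), histones (0.39%) and collagens (4.96%).

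The residues under translation were counted by weighting the amino acid make-up of each annotated protein by its CDS footprints, which covered 98.9% to 99.2% of CDS footprints. Leucine made up 8.80%, 8.76% and 8.79% of the young and 9.23%, 9.31% and 9% of the ICM total. Glycine made up 8.14%, 7.92% and 7.83% in young and 7.35%, 7.34% and 7.68% in ICM cells, and lysine 6.77%, 6.88% and 6.86% in young and 6.45%, 6.42% and 6.58% in ICM cells. None of these 3 residues overlapped between groups, as was so for 15 of all 20 residues. With collagen genes left out, lysine was still lower, by 0.45 percentage points on average, and leucine higher by 0.27 points, while glycine was no longer among the residues without overlap, which then numbered 11 of 20. The median CDS length was 1278 bases among rises, 1461 among falls and 1434 among uncalled genes, and the quartiles of falls, 680 and 2880 bases, were wider apart than those of rises, 834 and 1906 bases. Lengths and residues are descriptions over genes, which are not replicates, and carry no test.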

How the data were processed

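Footprints and poly(A) mRNA were measured in IMR90 lysates, 3 replicates per condition, and grouped by title. The deposited tables hold estimated counts per gene symbol for each transcript region, which the authors did not scale to depth. The aligner and annotation behind them are not given in the sources used here. The submitters' processing notes name GRCh37, STAR 2.6.0c, featureCounts, DESeq2 and deepTools without a role. CDS estimates (UTR and CDS together for mRNA) were rounded and tested with edgeR 4.0.16 in R 4.3.3 (TMM, filterByExpr, quasi-likelihood, all 9 libraries of an assay in one fit, two-sided, Benjamini-Hochberg). Low-count genes pass this filter more easily in the group where they are high, so counts over tested members are not counts over all members. SE is on the log2 scale.

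Named genes were the 12 largest rises and 12 largest falls called, whose average over the 6 libraries reached 50 CPM, with no overlap between groups and the same call without ICM replicate 3. For each list, the 4 tested members with most footprints and the largest called rise and fall were added, as were HMGB1, HMGB2, CDKN1A and LMNB1. The members and lists were chosen with earlier results of these data known. Alternatives included DESeq2 1.42.0. The code was tested on simulated data. Stem-loops and iron-responsive elements were read from GENCODE v44 transcripts lifted to GRCh37, of which 4580 tested genes had 1 match. Counting limits cover counting error only. Some genes that the rule names are not reported here. The study's anota2seq step was not used.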

Additional observations from a re-analysis of the deposited data

How the results depend on the processing

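Depth limited what could be seen of weakly expressed genes, since 1 read of the shallowest library was worth 22.8 CPM. Of the alternatives to the 1236 calls of ICM vs young Ribo-seq called genes, RLE scaling gave 1240, upper-quartile scaling 1231, a mean of at least 20 reads 1223, no filter 1477, UTR reads included 1054, an adjusted p under 0.15 gave 1786 and a log2 change over 0.6 gave 1203. DESeq2 gave 647 calls, a fit of only the 6 libraries 813, thinning to the shallowest library 285, and leaving out both ICM replicate 3 and young replicate 1 gave 1905. Leaving out 1 library at a time gave 619 to 1758 calls, of which 645 came without young replicate 2, 619 when young replicate 3 was left out and 778 when ICM replicate 1 was. Thinning left 1149 genes to test and the fit of 6 libraries 3031, and the other causes were not tested. Upper-quartile scaling gave 525 rises and 706 falls, against 635 and 601. The replicate block gave 741 calls. Deviations of same-numbered libraries correlated by 0.0364, 0.00467 and 0.0229, and those of differently numbered ones by −0.0397 to 0.0241. Counting noise of the shallow libraries can hide a pairing, so these values cannot decide whether the numbers pair the samples. For ICM vs young mRNA-seq called genes, 9357 became 9365 with RLE scaling and 8236 with CDS reads alone.

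Counts of called list members moved by more than 1.5 times for these lists, whose main counts were 13 for DNA replication, 29 for mitosis, 44 for histones, 17 for HMG proteins and lamins, 7 for p53 targets, 11 for secreted factors, 12 for adhesion, 21 for actin, 6 for cholesterol synthesis, 8 for ATF4 targets, 11 for tRNA synthetases, 9 for translation factors, 23 for ribosomal proteins, 8 for ribosome biogenesis, 6 for chaperones, 6 for ER folding, 6 for glycolysis, 15 for lysosomal genes, 3 for proteasome and 8 for nuclear transport. With no filter they were 20 for DNA replication, 3 for cholesterol synthesis, 3 for ER folding, 3 for glycolysis and 8 for lysosomal genes. With thinning they were 2 for DNA replication, 1 for mitosis, 5 for histones, 3 for HMG proteins and lamins, 2 for p53 targets, 6 for secreted factors, 5 for adhesion, 1 for cholesterol synthesis, 3 for ATF4 targets, 3 for tRNA synthetases, 1 for translation factors, 10 for ribosomal proteins, 1 for ribosome biogenesis, 7 for lysosomal genes, 1 for proteasome and 5 for nuclear transport. With both doubted libraries left out they were 22 for DNA replication, 11 for p53 targets, 15 for translation factors, 37 for ribosomal proteins, 12 for chaperones, 6 for proteasome and 15 for nuclear transport. With DESeq2 they were 17 for mitosis, 11 for HMG proteins and lamins, 3 for p53 targets, 3 for cholesterol synthesis, 5 for translation factors, 14 for ribosomal proteins, 4 for ribosome biogenesis, 3 for chaperones, 9 for lysosomal genes and 1 for proteasome. With only the 6 libraries they were 19 for mitosis and 4 for p53 targets. With the replicate block they were 4 for p53 targets, 3 for cholesterol synthesis, 5 for ribosome biogenesis and 9 for lysosomal genes. With UTR reads included they were 12 for actin, 3 for chaperones and 3 for ER folding. With upper-quartile scaling they were 15 for translation factors. With an adjusted p under 0.15 they were 18 for translation factors, 35 for ribosomal proteins, 15 for chaperones, 11 for glycolysis and 13 for nuclear transport. Leaving out 1 library at a time gave 10 to 21 for DNA replication, 17 to 33 for mitosis, 9 to 19 for HMG proteins and lamins, 4 to 10 for p53 targets, 6 to 12 for secreted factors, 6 to 13 for adhesion, 3 to 5 for cholesterol synthesis, 7 to 12 for tRNA synthetases, 13 to 35 for ribosomal proteins, 4 to 8 for ribosome biogenesis, 3 to 10 for chaperones, 3 to 6 for ER folding, 3 to 8 for glycolysis, 6 to 15 for lysosomal genes, 1 to 5 for proteasome and 7 to 15 for nuclear transport. The causes were not tested. The median log2FC of a list took the other sign in 13 of 368 alternative values, all of the secreted factors or ER folding, whose medians were 0.18 and 0.11.

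The 97 called named genes kept their sign in each of the 1499 alternative values that could be computed. Of these genes 63 had a value in all 16 alternative fits, of which 39 kept their call in all, and the other 34 were not tested in 1 to 4 of them. Counting only fits with a value, 65 of the 97 kept their call throughout. Another 15 named genes, not called, changed sign without being called (adjusted p from 0.579 to 1, edgeR or DESeq2). With upper-quartile scaling the log2FC was −0.05 for CALR, −0.04 for RPL4 and −0.10 for TIMP1. With no filter the log2FC was −0.12 for CALR, −0.01 for EEF2, −0.06 for PSMB1, −0.10 for PSMB5, −0.10 for RPL4, −0.04 for SLC38A2, −0.01 for SLC3A2 and −0.15 for TIMP1. With thinning the log2FC was −0.13 for CALR, −0.04 for PSMB5, −0.10 for RPL4 and −0.12 for SLC3A2. With both doubted libraries left out the log2FC was −0.11 for CALR, −0.07 for COL12A1, −0.02 for DCN, −0.15 for RPL4, −0.09 for SLC38A2 and −0.06 for TIMP1. With UTR reads included the log2FC was 0.02 for HSPA8 and 0.01 for PSMD2. With DESeq2 the log2FC was −0.02 for PSMB5 and −0.01 for TIMP1. With the replicate block the log2FC was −0.07 for PSMB5 and 0.00 for TIMP1. With a mean of 20 reads the log2FC was 0.01 for PSMD2. Leaving out 1 library at a time gave a log2FC of −0.15 to 0.79 for BAX, −0.21 to 0.10 for CALR, −0.58 to 0.06 for IARS, −0.26 to 0.26 for PSMB1, −0.21 to 0.17 for PSMB5, −0.56 to 0.15 for RPA1, −0.06 to 0.11 for RPL4, −0.17 to 0.24 for SLC38A2, −0.12 to 0.20 for SLC3A2 and −0.10 to −0.02 for TIMP1.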
